A study of Caenorhabditis elegans with 12 samples.

Results

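The synaptic release and transmitter genes described here are 32 named genes of Caenorhabditis elegans, out of 46934 gene entries in the deposited tables. They were taken by name from a given list, and each symbol matched 1 WBGene identifier of the WBcel235 annotation. They fall into 5 roles: 11 genes of synaptic vesicle fusion, 9 of transmitter synthesis and vesicle loading, 4 of dense-core vesicles and peptide processing, 5 of vesicle transport and recycling, and 3 other neuronal genes. By chromosome, 4 lie on I, 5 on II, 6 on III, 6 on IV, 5 on V and 6 on X.

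Neurons release transmitter when a synaptic vesicle fuses with the cell membrane. Syntaxin, SNAP-25 and synaptobrevin pull the membranes together, UNC-18 and UNC-13 prepare them for fusion, and synaptotagmin and complexin tie fusion to calcium. Transmitters are made by enzymes such as choline acetyltransferase and are pumped into vesicles by dedicated transporters. Neuropeptides travel instead in dense-core vesicles, where the convertase EGL-3 and the carboxypeptidase EGL-21 trim their precursors. In the worm most of these genes act in many or all neurons, whereas the transmitter enzymes and transporters mark smaller classes of neurons.

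RNA was sequenced from whole bodies of synchronised prefertile adult hermaphrodites grown at 20 °C on OP50 bacteria, with 3 libraries from independent harvests for each of 4 genotypes. The genotypes were the dis-3(L75Q) mutant (strain VC40130), the eat-2(ad1116) mutant (strain IJ173), the double mutant eat-2(ad1116); dis-3(L75Q) (strain IJ2290) and wild type (strain N2). The dis-3 gene encodes an exosome ribonuclease, and eat-2 encodes a subunit of an acetylcholine receptor in pharyngeal muscle, whose loss slows feeding and serves as a model of dietary restriction. Each genotype was 1 strain, so the named alleles and any other difference between the strains cannot be told apart.

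The libraries held 31812386 to 32773817 estimated counts, and 18236 to 18851 gene entries were above 0 in each. The mutated genes gave no check of the labels. dis-3 averaged 185 ± 4 CPM (counts scaled to a common library size) in the dis-3(L75Q) strain, 161 ± 8.1 in the eat-2(ad1116) strain, 168 ± 7.2 in the double mutant and 182 ± 12 in wild type (SD, n = 3 each). eat-2 averaged 0.624 ± 0.15, 0.439 ± 0.29, 0.279 ± 0.013 and 0.625 ± 0.13 CPM in the same order, and edgeR called no difference in either gene, with adjusted p-values of 0.17 and above. Libraries of 1 genotype differed in developmental stage markers. The score used for them was the average log2 CPM over 30 molting genes less the average over 29 genes of oocytes and eggshells. It was 2.06, 1.70 and -0.86 in dis-3(L75Q) replicates 1 to 3, -0.97, 2.01 and 2.01 in those of eat-2(ad1116), 1.23, 0.75 and 0.65 in those of the double mutant, and -2.47, 0.39 and -3.25 in those of wild type. Replicate 3 of dis-3(L75Q), replicate 1 of eat-2(ad1116) and replicate 2 of wild type stood apart from the other libraries of their genotype. The mean score of each mutant was above that of wild type, by 2.74 (dis-3(L75Q)), 2.79 (eat-2(ad1116)) and 2.65 (double mutant). The exact two-sided permutation p-values were 0.2, 0.2 and 0.1, and 0.1 is the smallest that 3 against 3 libraries allows. The lists behind the score were chosen with earlier results of these data known, so these p-values are descriptive and not an independent test.

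All 32 genes passed the filter on low counts, with 25 to 3362 counts per gene and library. Per length, in TPM (counts scaled for exon length and library size), the levels of the 32 genes in wild type spanned 50.3-fold. The synaptobrevin gene snb-1 was highest, at 33.9 ± 1.8 TPM in the dis-3(L75Q) strain, 43.8 ± 1.1 in the eat-2(ad1116) strain, 38.5 ± 4.7 in the double mutant and 36.9 ± 1.5 in wild type. After it in wild type came unc-18, which encodes the syntaxin-binding protein, at 30.8 ± 3.5 TPM, and the SNAP-25 gene ric-4 at 28.1 ± 2.7 TPM, 2 neighbours within each other's spread. In the eat-2(ad1116) and double mutants ric-4 was above snb-1, at 46.2 ± 9.7 and 43 ± 1.7 TPM, which differed from snb-1 by less than the spread between libraries. At the low end in wild type stood cat-2, the tyrosine hydroxylase gene of dopamine neurons, at 0.733 ± 0.24 TPM, and tph-1, the tryptophan hydroxylase gene of serotonin neurons, at 0.737 ± 0.14 TPM, which did not differ beyond their spread. Genes that act in most neurons filled most of the upper ranks, with the GABA synthesis gene unc-25 at rank 6. The lowest were the monoamine genes, the vesicular GABA transporter gene unc-47 and unc-46, whose product sorts that transporter. The median SD between libraries of 1 genotype was 0.256 on the log2 CPM scale for the 32 genes and 0.291 for all 16259 genes tested.

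**Figure D1:**
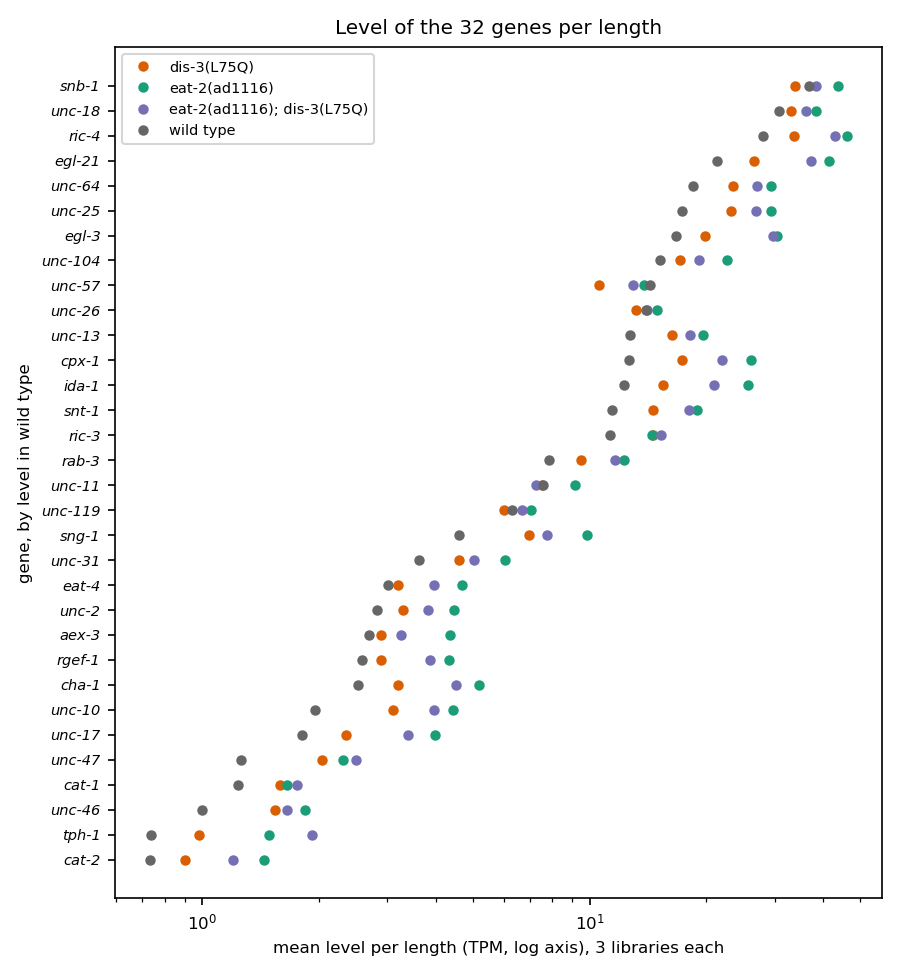
Level per length of each of the 32 genes (TPM, log axis) in the 4 genotypes, as means of 3 libraries, ordered by the level in wild type. snb-1, unc-18 and ric-4 lie at the upper end, and tph-1 and cat-2 at the lower end, near 0.7 TPM in wild type.

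Most of the 32 genes had their highest mean CPM in eat-2(ad1116) and their lowest in wild type. The mean of eat-2(ad1116) was the highest of the 4 genotypes for 25 genes, the double mutant mean was second for 23, and the wild type mean was the lowest for 27. These are counts of means, carry no test and were not taken over all genes. In dis-3(L75Q), eat-2(ad1116) and wild type, many of the 32 genes shared the library that stood lowest or highest. Replicate 1 of eat-2(ad1116) was below both other eat-2(ad1116) libraries for 30 genes, replicate 3 of dis-3(L75Q) below both others of its genotype for 20, and replicate 2 of wild type above both other wild type libraries for 25. These were the same 3 libraries that stood apart on the stage score. The share of all genes with these patterns was not counted. In the double mutant, the 32 genes had median log2 deviations of 0.06, -0.05 and 0.01 from the genotype mean in replicates 1 to 3.

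**Figure D2:**
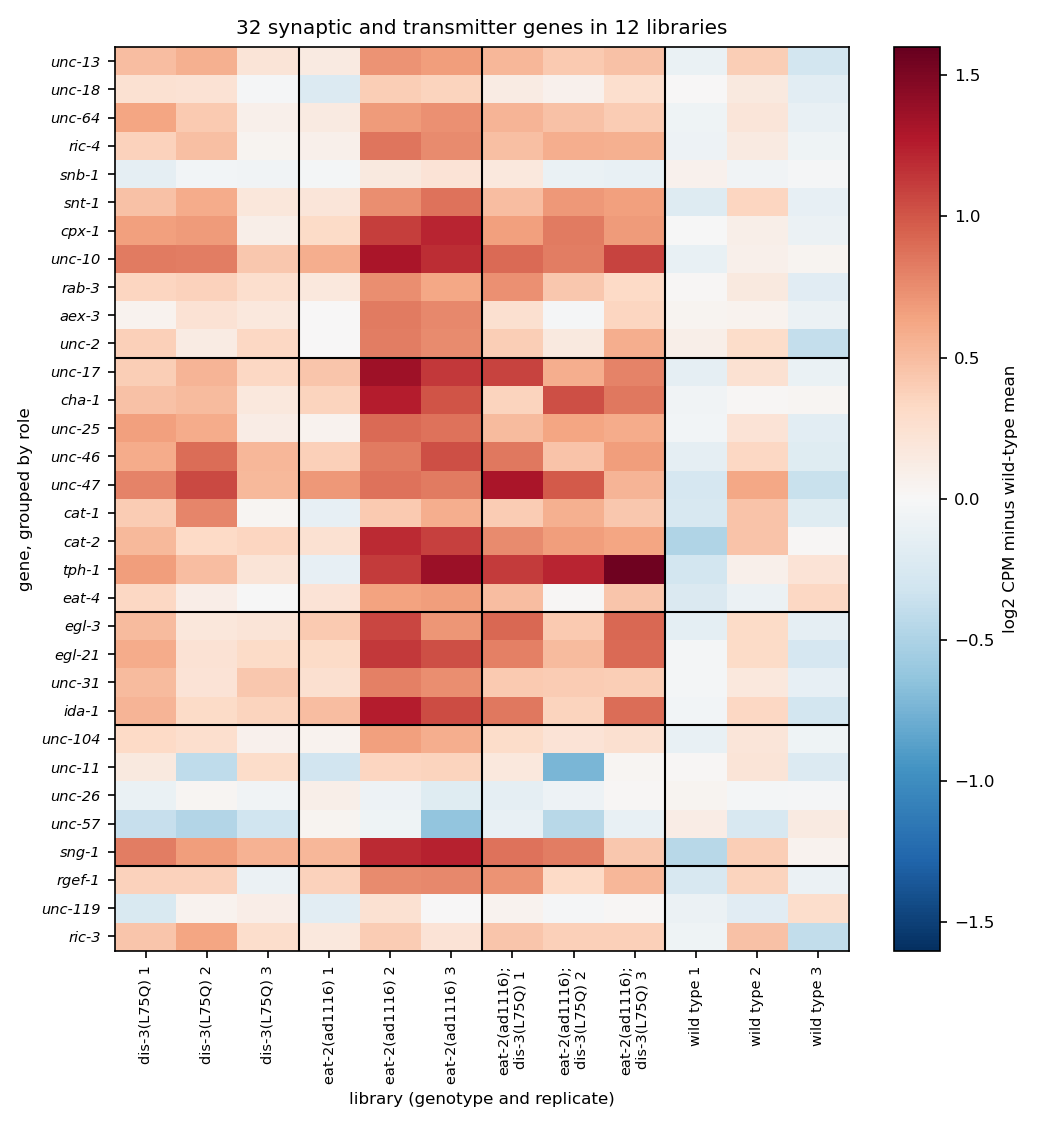
Log2 CPM of each gene (rows, grouped by role) in each of the 12 libraries (columns), minus the gene's mean in wild type. Replicates 2 and 3 of eat-2(ad1116) are the most evenly high, replicate 1 of eat-2(ad1116) is lower, and snb-1, unc-26, unc-57 and unc-119 stay near or below the wild type mean.

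In eat-2(ad1116) against wild type, 7 of the 32 genes rose and none fell, at an adjusted p under 0.05 over all genes tested. They were the fusion genes unc-10 and cpx-1, the acetylcholine transporter gene unc-17, the dense-core vesicle genes ida-1, egl-21 and unc-31, and the vesicle protein gene sng-1, with 1.54- to 2.08-fold higher levels. Over all genes tested, 4.08% were called higher in this comparison, 2.12% lower and 6.21% in either direction, beside 21.9% of the 32. The fitted log2 fold change was above 0 for 30 of the 32 genes, with a median of 0.61, against -0.01 over all genes. All 3 eat-2(ad1116) libraries were above all 3 wild type libraries for 13 of the 32 genes, and 12.1% of all genes were, while none of the 32 and 9.52% of all genes were entirely below. In whole-animal RNA, more RNA per neuron and a larger share of neuronal RNA in the body cannot be told apart.

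Of the 11 fusion genes, 2 rose and the other 9 did not pass the test. unc-10 encodes the worm RIM protein, which organises the release site, and lies on chromosome X at 7272317 to 7280322 on the minus strand. It had 10.9, 18 and 16.5 CPM in eat-2(ad1116), against 6.66, 7.69 and 7.46 CPM in wild type. Its lowest eat-2(ad1116) library was still above every wild type library. The level was 2.08-fold higher in eat-2(ad1116), a log2 fold change of 1.06 ± 0.20 (SE, edgeR adjusted p = 0.014). cpx-1, the complexin gene, lies on chromosome I at 1594649 to 1596216 on the minus strand. It had 9.41, 16.4 and 17.7 CPM in eat-2(ad1116), against 7.58, 8.10 and 7.09 CPM in wild type. The groups did not overlap, though replicate 1 of eat-2(ad1116) lay close to wild type. The log2 fold change of cpx-1 was 0.93 ± 0.24 (edgeR adjusted p = 0.044).

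The other fusion genes had log2 fold changes of 0.12 to 0.61 in eat-2(ad1116). The syntaxin gene unc-64 had 39.1, 57 and 59.1 CPM in eat-2(ad1116), against 33.9, 40.5 and 32.5 CPM in wild type, and replicate 1 of eat-2(ad1116) fell within the wild type range. Its log2 fold change was 0.54 ± 0.18 (adjusted p = 0.092). The SNAP-25 gene ric-4 and the synaptotagmin gene snt-1 gave 0.60 ± 0.19 and 0.61 ± 0.20 (adjusted p = 0.081 and 0.095). For the priming gene unc-13, the GTPase gene rab-3, its exchange factor gene aex-3 and the calcium channel gene unc-2, values were between 0.50 and 0.58, with adjusted p-values of 0.10 to 0.17. unc-18 gave 0.20 ± 0.16. snb-1 had 21.8, 24.7 and 25.9 CPM in eat-2(ad1116), against 23.4, 21.5 and 21.9 CPM in wild type. These groups overlapped, and its log2 fold change was 0.12 ± 0.12 (adjusted p = 0.52).

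Of the 9 genes of transmitter synthesis and loading, all had a log2 fold change above 0 in eat-2(ad1116), with a median of 0.76, and 1 rose. unc-17 encodes the vesicular acetylcholine transporter and lies on chromosome IV at 3618259 to 3624699 on the minus strand. It had 3.53, 6.64 and 5.66 CPM in eat-2(ad1116), against 2.35, 3.07 and 2.40 CPM in wild type. All 3 eat-2(ad1116) libraries were above wild type, replicate 1 by the least. Its level was 2.02-fold higher, a log2 fold change of 1.02 ± 0.25 (edgeR adjusted p = 0.037). cha-1, the choline acetyltransferase gene of the same locus, had 5.00, 9.37 and 7.87 CPM in eat-2(ad1116), against 3.77, 3.96 and 4.02 CPM in wild type. There was no overlap between the groups, and the log2 fold change of 0.92 ± 0.25 did not pass the test (adjusted p = 0.052). Both genes share their first exon, which makes up 3.43% of the exon bases of unc-17 and 3.18% of those of cha-1, so the split of reads between them is uncertain. Their summed level was 12.7 ± 3.8 CPM in eat-2(ad1116) and 6.52 ± 0.46 CPM in wild type (SD, n = 3 each).

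Among the other transmitter genes, the tryptophan hydroxylase gene tph-1 had 0.93, 2.22 and 2.64 CPM in eat-2(ad1116), against 0.824, 1.08 and 1.19 CPM in wild type. Replicate 1 of eat-2(ad1116) lay within the wild type range. tph-1 and cat-2 gave log2 fold changes of 0.90 ± 0.35 and 0.86 ± 0.29 (adjusted p = 0.14 and 0.10). The GABA genes gave 0.65 ± 0.22 for unc-25 (glutamate decarboxylase), 0.74 ± 0.30 for unc-47 (the vesicular transporter) and 0.76 ± 0.26 for unc-46 (which sorts that transporter). Their adjusted p-values were 0.10, 0.15 and 0.098. The vesicular glutamate transporter gene eat-4 gave 0.50 ± 0.21 and the vesicular monoamine transporter gene cat-1 0.29 ± 0.28. Some exon bases of tph-1 (8.19%) and eat-4 (5.37%) are shared with genes on the opposite strand. The strand setting of the counting was not given in the sources used here.

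The dense-core vesicle genes had the largest share of calls of the 5 roles, 3 of 4. ida-1 encodes a phosphatase-like membrane protein of dense-core vesicles and lies on chromosome III at 5755539 to 5765816 on the plus strand. It had 32.9, 56 and 48.2 CPM in eat-2(ad1116), against 22.7, 29.5 and 19.1 CPM in wild type. The genotypes were fully separated, and the log2 fold change was 0.94 ± 0.22 (edgeR adjusted p = 0.035). egl-21, the carboxypeptidase gene, lies on chromosome IV at 10478442 to 10481844 on the minus strand. It had 33.1, 58.4 and 54.4 CPM in eat-2(ad1116), against 26, 32.9 and 22.2 CPM in wild type. Replicate 1 of eat-2(ad1116) was barely above replicate 2 of wild type. The log2 fold change was 0.85 ± 0.22 (edgeR adjusted p = 0.048). unc-31 encodes CAPS, which primes dense-core vesicles for release, and lies on chromosome IV at 12773867 to 12788354 on the plus strand. It had 16.9, 24.7 and 23.8 CPM in eat-2(ad1116), against 13.8, 15.9 and 12.9 CPM in wild type. No library of 1 genotype fell in the range of the other, and the log2 fold change of 0.62 ± 0.16 was the smallest of the 7 calls (edgeR adjusted p = 0.046). The fourth gene, the convertase gene egl-3, had 42.5, 66.3 and 51.8 CPM in eat-2(ad1116), against 28.4, 39.1 and 28.7 CPM in wild type. It also separated the groups, but its log2 fold change of 0.74 ± 0.20 did not pass (adjusted p = 0.055).

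The 5 transport and recycling genes did not move as a block. sng-1, which encodes the vesicle membrane protein synaptogyrin, lies on chromosome X at 7327601 to 7329705 on the plus strand. It had 4.98, 7.83 and 8.06 CPM in eat-2(ad1116), against 2.5, 4.50 and 3.56 CPM in wild type. The libraries did not overlap, and the level was 1.97-fold higher, a log2 fold change of 0.98 ± 0.25 (edgeR adjusted p = 0.047). The kinesin gene unc-104, whose motor carries vesicle precursors along axons, gave 0.45 ± 0.15 (adjusted p = 0.098). The genes of vesicle retrieval did not change detectably. The log2 fold changes were 0.15 ± 0.27 for unc-11 (AP180, a clathrin adaptor), -0.05 ± 0.10 for unc-26 (synaptojanin) and -0.20 ± 0.19 for unc-57 (endophilin). unc-26 had 42.3, 37.5 and 34.8 CPM in eat-2(ad1116), against 41, 38.9 and 39.1 CPM in wild type, and was the least variable of the 32 genes, with an SD of 0.091 on the log2 scale within genotypes.

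The last 3 genes act in neurons outside the release cycle. rgef-1, a Ras exchange factor gene used as a marker of all neurons, had 6.70, 8.74 and 8.87 CPM in eat-2(ad1116), against 4.34, 6.62 and 4.84 CPM in wild type. The groups did not overlap, with replicate 1 of eat-2(ad1116) just above the highest wild type library, and the log2 fold change was 0.62 ± 0.22 (adjusted p = 0.10). unc-119, another gene used to mark all neurons, had 3.86, 5.14 and 4.36 CPM in eat-2(ad1116), against 4.06, 3.80 and 5.24 CPM in wild type. These groups overlapped fully, with a log2 fold change of 0.03 ± 0.18 (adjusted p = 0.93). ric-3, a chaperone gene of acetylcholine receptors, gave 0.22 ± 0.20 (adjusted p = 0.46).

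**Figure D3:**
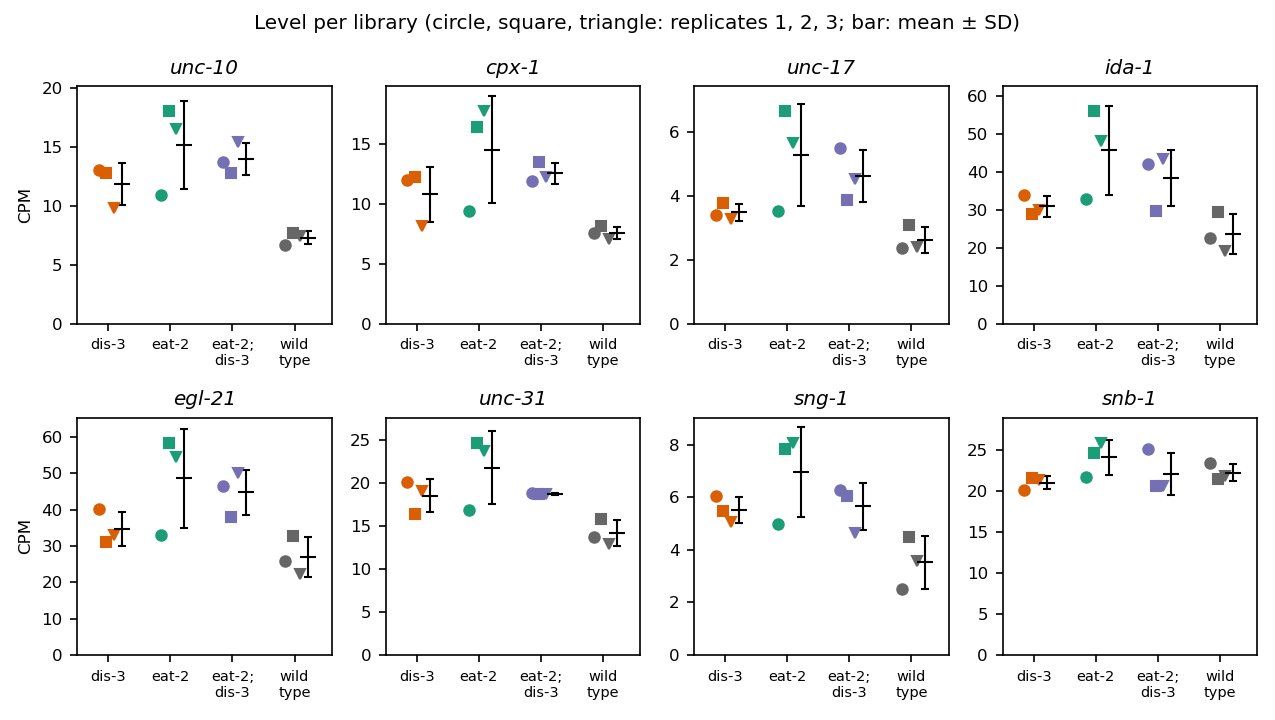
CPM per library for the 7 genes that rose in eat-2(ad1116) relative to wild type, with snb-1 as a gene that was not called, by genotype (circle, square and triangle are replicates 1, 2 and 3, and the bar is the mean ± SD). In the 7 called genes replicate 1 of eat-2(ad1116) is below the other 2 eat-2(ad1116) libraries and above all wild type libraries, and snb-1 lies between 20.2 and 25.9 CPM throughout.

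The count of 7 depended on single libraries, as did the calls over all genes. It was 24 without eat-2(ad1116) replicate 1, where 37.5% of all genes were called (18.7% higher), and 14 without wild type replicate 2, where 14.9% were (10.6% higher), but 0 without wild type replicate 1, eat-2(ad1116) replicate 2 or eat-2(ad1116) replicate 3, 1 without wild type replicate 3, and 1 to 4 without any 1 library of the other genotypes. In these fits with 0 to 4 calls, 1.81% to 6.66% of all genes were called. With a term for the stage score none of the 32 genes was called by edgeR, beside 4.78% of all genes, the median log2 fold change was 0.22, and unc-10 gave 0.69 (adjusted p = 0.066). The score came from these same libraries, and its mean was higher in each mutant than in wild type. A term for it therefore cannot fully separate stage from genotype.

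The same libraries were read for markers of other tissues, as given here for eat-2(ad1116) against wild type. Over all genes in this comparison, 4.08% were called higher and 2.12% lower, and 26.9% had an unadjusted p under 0.05 by edgeR. Of 20 genes of the neuronal cytoskeleton, axon and neuron identity, 1 rose and 19 had a log2 fold change above 0, with a median of 0.57. Their summed level was 1370 to 2180 CPM in eat-2(ad1116) and 1220 to 1660 CPM in wild type. Glia and sheath markers had a median of 0.73, with 2 of 9 tested higher, and summed to 115 to 217 CPM in eat-2(ad1116) and 71.3 to 135 CPM in wild type. The pharynx markers had a median of 0.62, with 1 of 15 higher, and summed to 994 to 2250 CPM in eat-2(ad1116) and 902 to 1140 CPM in wild type. None of the body wall muscle (14), intestine (14) or epidermis (15) markers was called by edgeR, with 2, 4 and 2 at an unadjusted p under 0.05 and medians of 0.15, -0.11 and 0.42. The molting genes had a median of 0.90, the oocyte and eggshell genes -0.93 and the yolk genes -3.82, with 3 of the 6 yolk genes lower. None of the 30 molting or 29 oocyte and eggshell genes was called by edgeR, with 5 and 1 at an unadjusted p under 0.05. Sperm and germline genes had medians of -0.92 and -0.25, with none of 23 and 19 called by edgeR, 9 and 4 at an unadjusted p under 0.05, and all 19 germline genes below 0. No marker on these lists was at 0 in any library. The mean log2 CPM of the 32 synaptic genes, minus its mean over libraries, was -0.16, 0.43 and 0.37 in eat-2(ad1116) replicates 1 to 3, against -0.44, -0.14 and -0.44 in wild type. In both genotypes the libraries with the higher synaptic level were those with the higher stage score. The synaptic level was 0.06, 0.03 and -0.15 in dis-3(L75Q) replicates 1 to 3, in the order of their stage scores. Replicates 1 and 2 of dis-3(L75Q) had scores of 2.06 and 1.70, near the 2.01 of eat-2(ad1116) replicates 2 and 3, at lower synaptic levels. In the double mutant the level was 0.21, 0.06 and 0.17, and replicate 3, with the lowest score, was above replicate 2. The part of tissue makeup and stage in the values of the synaptic genes was not tested beyond the stage term above.

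**Figure D4:**
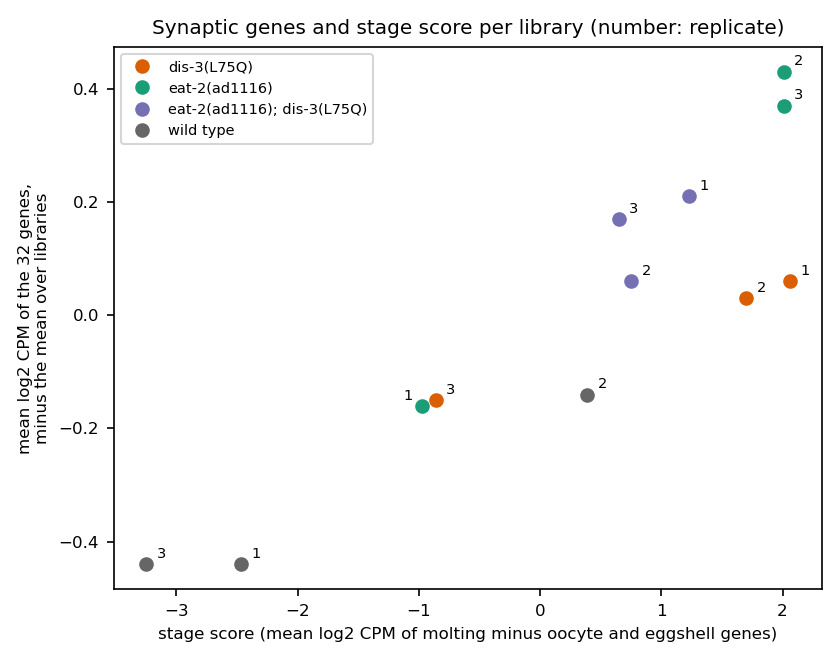
Mean log2 CPM of the 32 genes, minus the mean over libraries (vertical axis), against the stage score (horizontal axis) in each of the 12 libraries, numbered by replicate. Wild type replicates 1 and 3 lie lowest on both axes, at -0.44 and at scores of -2.47 and -3.25, and eat-2(ad1116) replicates 2 and 3 lie highest on the vertical axis, at 0.43 and 0.37. Replicate 1 of dis-3(L75Q) has the highest score, 2.06, and lies at 0.06 on the vertical axis.

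The comparisons of the 3 mutants with wild type share the 3 wild type libraries, so the values that follow are not independent of those above. In dis-3(L75Q) against wild type, none of the 32 genes passed the test, while 0.56% of all genes did (0.32% higher, 0.24% lower). By edgeR 5 genes had an unadjusted p under 0.05, which is 15.6% of the 32 and 16.8% of all genes. DESeq2 called 1 of the 32 (3.12%), unc-10 (log2 fold change 0.71, adjusted p = 0.045), beside 2.08% of all genes. limma-voom called 0 of the 32, beside 0.535% of all genes. The log2 fold change was above 0 for 28 genes, with a median of 0.37 against 0.02 over all genes. All dis-3(L75Q) libraries were above all wild type libraries for 9 genes, and 9.37% of all genes were.

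unc-10 had the smallest p, with 13, 12.8 and 9.82 CPM in dis-3(L75Q), against 6.66, 7.69 and 7.46 CPM in wild type. There was no overlap between the groups, and the log2 fold change was 0.70 ± 0.20 (edgeR adjusted p = 0.22). sng-1 had 6.05, 5.47 and 5.06 CPM in dis-3(L75Q), against 2.5, 4.50 and 3.56 CPM in wild type, again without overlap, and gave 0.65 ± 0.25 (adjusted p = 0.29). unc-46 had 1.32, 1.64 and 1.27 CPM in dis-3(L75Q), against 0.793, 1.11 and 0.761 CPM in wild type. It separated the groups too, at 0.67 ± 0.26 (adjusted p = 0.29). unc-31 had 20.1, 16.4 and 19.1 CPM in dis-3(L75Q), against 13.8, 15.9 and 12.9 CPM in wild type, and its log2 fold change was 0.39 ± 0.16 (adjusted p = 0.29). Among the other neuronal genes ric-3 had 17.8, 20.4 and 16 CPM in dis-3(L75Q), against 12.5, 18.1 and 9.98 CPM in wild type. These groups overlapped, at 0.42 ± 0.20 (adjusted p = 0.30).

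The endophilin gene unc-57 had the most negative value, with 14.5, 13.5 and 14.9 CPM in dis-3(L75Q), against 20.2, 15.6 and 20.5 CPM in wild type. All 3 dis-3(L75Q) libraries were below all 3 wild type libraries, the 1 gene of the 32 with that pattern (9.51% of all genes had it). Its log2 fold change of -0.39 ± 0.19 did not pass the test (edgeR adjusted p = 0.30). The remaining 26 genes had log2 fold changes between -0.08 for snb-1 and 0.74 ± 0.30 for unc-47, which overlapped wild type. Without wild type replicate 2, 2 of the 32 genes (6.25%) were called higher, unc-47 and ric-3, beside 6.38% of all genes. With dis-3(L75Q) replicate 3, eat-2(ad1116) replicate 1 and wild type replicate 2 left out together, 20 were called higher and unc-57 lower, which is 65.6% of the 32, beside 51.6% of all genes (27% higher, 24.6% lower). The libraries kept had stage scores of 2.06 and 1.70 in dis-3(L75Q) and of -2.47 and -3.25 in wild type. Genotype and stage score cannot be told apart in that fit.

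In the double mutant against wild type, unc-10 rose and no gene fell. It had 13.7, 12.8 and 15.4 CPM in the double mutant, against 6.66, 7.69 and 7.46 CPM in wild type. The genotypes were fully separated, and its level was 1.92-fold higher, a log2 fold change of 0.94 ± 0.20 (edgeR adjusted p = 0.026). Of all genes tested, 2.54% were called higher and 4.27% in either direction, beside 3.12% of the 32. The log2 fold change was above 0 for 28 of the 32, with a median of 0.50 against 0.02 over all genes, and 59.4% of the 32 had an unadjusted p under 0.05 against 23% of all genes. All double mutant libraries were above all wild type libraries for 19 of the 32, while 20.4% of all genes were.

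The genes nearest to the threshold in the double mutant were egl-3 and tph-1. egl-3 had 60.1, 42.5 and 60 CPM in the double mutant, against 28.4, 39.1 and 28.7 CPM in wild type. No library of 1 genotype fell in the range of the other, at a log2 fold change of 0.76 ± 0.20 (adjusted p = 0.062). tph-1 had 2.22, 2.38 and 3.02 CPM in the double mutant, against 0.824, 1.08 and 1.19 CPM in wild type. Each double mutant library was above every wild type library, and 1.3 ± 0.35 was the largest log2 fold change of the 32 genes in this comparison (edgeR adjusted p = 0.065). unc-17 and cha-1 gave 0.83 ± 0.24 and 0.77 ± 0.25 (adjusted p = 0.087 and 0.10), with a summed level of 11.3 ± 0.74 CPM in the double mutant and 6.52 ± 0.46 CPM in wild type. The ratio of unc-17 to cha-1 was 1.10, 0.483 and 0.640 in the 3 double mutant libraries, against 0.623, 0.775 and 0.597 in wild type, so single libraries divided the locus unequally.

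Of the other genes called in eat-2(ad1116), egl-21 had 46.6, 38 and 50 CPM in the double mutant, against 26, 32.9 and 22.2 CPM in wild type. ida-1 had 42, 29.8 and 43.5 CPM in the double mutant, against 22.7, 29.5 and 19.1 CPM in wild type. Neither gene overlapped between the groups, though replicate 2 of the double mutant was close to wild type replicate 2 for ida-1. egl-21 and ida-1 gave log2 fold changes of 0.73 ± 0.22 and 0.69 ± 0.22 (adjusted p = 0.090 and 0.11). cpx-1, sng-1 and unc-31 gave 0.72 ± 0.24, 0.68 ± 0.25 and 0.40 ± 0.16 (adjusted p = 0.11, 0.15 and 0.17). rgef-1 gave 0.51 ± 0.22 (adjusted p = 0.19), and snb-1, unc-26 and unc-119 gave -0.01 ± 0.12, -0.07 ± 0.10 and 0.01 ± 0.18. The call of unc-10 was lost without wild type replicate 1 or 3 or without any 1 double mutant library, and 10 and 11 genes of the 32 were called without wild type replicate 2 and without eat-2(ad1116) replicate 1, beside 14.5% and 9.62% of all genes. None of the 32 was called with a term for the stage score, where the median was 0.18 and 4.05% of all genes were called.

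**Figure D5:**
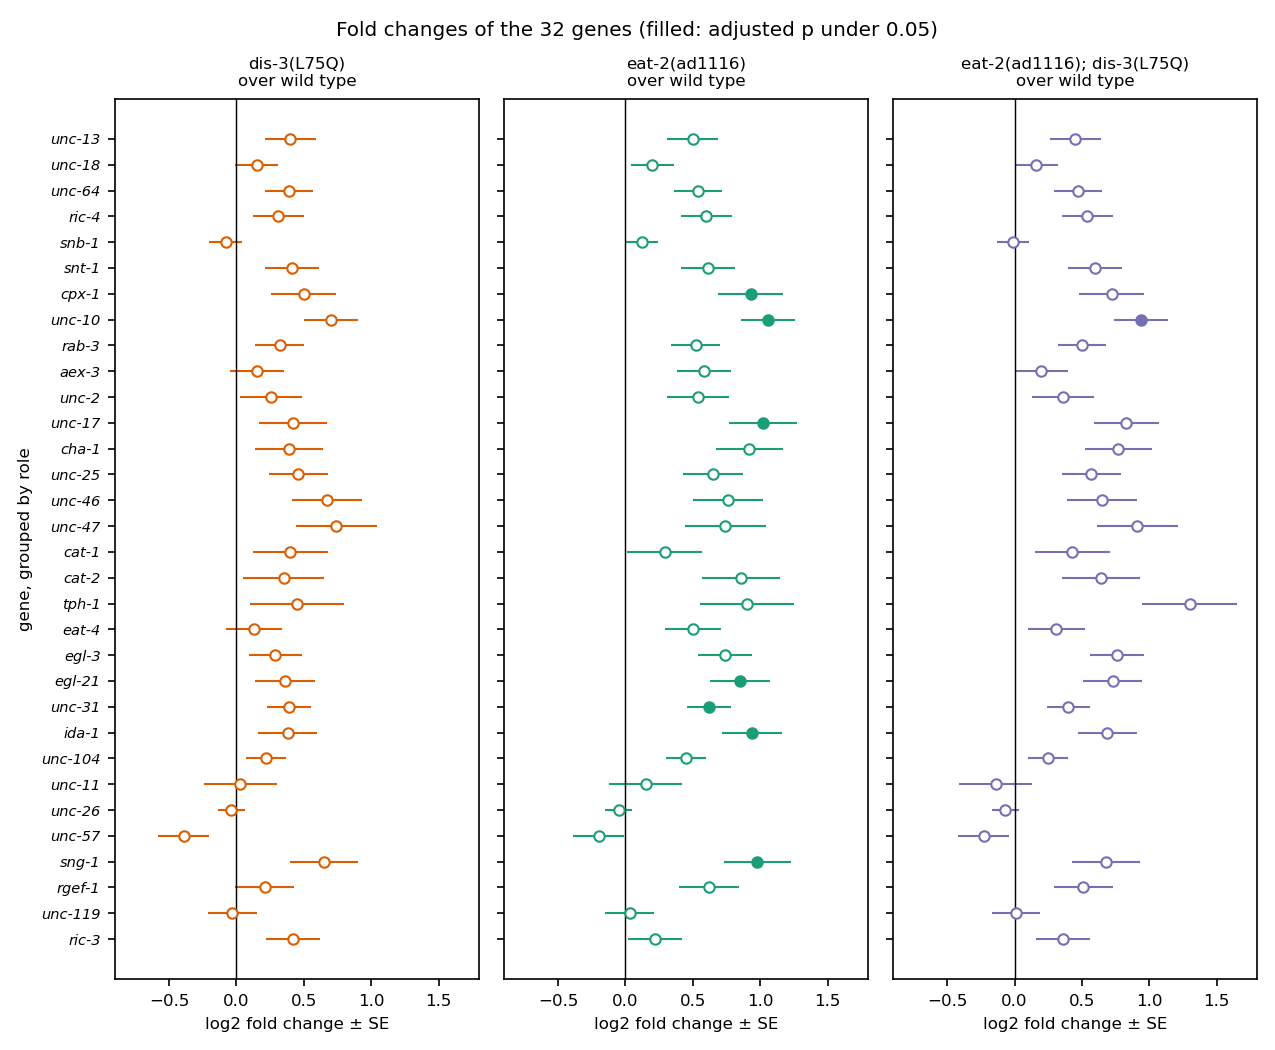
Log2 fold change ± SE of each of the 32 genes, grouped by role, for the 3 mutants, each over wild type (dis-3(L75Q), eat-2(ad1116), double mutant). Filled points have an adjusted p under 0.05, which holds for 0, 7 and 1 genes. unc-26, unc-57 and unc-119 lie at or below 0.03 in each panel.

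The double mutant was also set against each single mutant. Against eat-2(ad1116), none of the 32 genes was called by edgeR, DESeq2 or limma-voom, and 0 had an unadjusted p under 0.05 in edgeR, beside 0.351% of all genes called (0.154% higher, 0.197% lower). None of the 32 separated the groups, as 7.68% of all genes did upward and 4.67% downward. The log2 fold change was below 0 for 27 genes, with a median of -0.11 against 0 over all genes. The smallest p was for aex-3, with 11.8, 9.77 and 12.6 CPM in the double mutant, against 9.95, 17.6 and 16.9 CPM in eat-2(ad1116). The groups overlapped through replicate 1 of eat-2(ad1116), and the log2 fold change was -0.38 ± 0.20 (edgeR adjusted p = 0.96). unc-10 gave -0.12 ± 0.19. In the other roles the smallest p-values belonged to tph-1 (0.40 ± 0.34), unc-31 (-0.22 ± 0.16), unc-104 (-0.20 ± 0.15) and ric-3 (0.14 ± 0.20). Differences of the size of these SEs were not detectable with 3 libraries a group. With the 3 libraries that stood apart on the stage score left out, 9 of the 32 genes (28.1%) were called, all lower in the double mutant, among them aex-3 and unc-104, beside 25.1% of all genes (10.2% lower). The libraries kept had stage scores of 0.65 to 1.23 in the double mutant and of 2.01 and 2.01 in eat-2(ad1116). Genotype and stage score cannot be told apart there either.

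Against dis-3(L75Q), none of the 32 genes was called in the double mutant by edgeR, DESeq2 or limma-voom, beside 1.24% of all genes (0.547% higher, 0.695% lower). 2 genes had an unadjusted p under 0.05 in edgeR, tph-1 and egl-3. tph-1 had 2.22, 2.38 and 3.02 CPM in the double mutant, against 1.62, 1.44 and 1.17 CPM in dis-3(L75Q). The libraries did not overlap, as for 2 other genes of the 32 (unc-17 and cat-2) and 11.2% of all genes, and the log2 fold change was 0.85 ± 0.34 (edgeR adjusted p = 0.40). egl-3 had 60.1, 42.5 and 60 CPM in the double mutant, against 45, 36 and 36.5 CPM in dis-3(L75Q). These overlapped, at 0.47 ± 0.20 (edgeR adjusted p = 0.44). The smallest p-values of the other roles were those of ric-4 (0.23 ± 0.19), unc-57 (0.17 ± 0.19) and rgef-1 (0.30 ± 0.21). The median over the 32 genes was 0.13, against 0.05 over all genes.

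The interaction, the double mutant's log2 level minus both single mutants' plus wild type's, asks whether the double mutant departs from the sum of the single mutant changes. It passed the test for none of the 32 genes in edgeR, DESeq2 or limma-voom, and for 0.0615% of all genes in edgeR (0.0369% above 0, 0.0246% below). It was below 0 for 29 of the 32, with a median of -0.43 against -0.02 over all genes, and 3 genes had an unadjusted p under 0.05. These were unc-10 (-0.82 ± 0.28), sng-1 (-0.95 ± 0.36) and unc-31 (-0.60 ± 0.22), each with an edgeR adjusted p of 0.52. For unc-46 and rgef-1, the leading genes of the other 2 roles, it was -0.77 ± 0.36 and -0.32 ± 0.30. For tph-1 it was -0.05 ± 0.48. Without eat-2(ad1116) replicate 1, 8 of the 32 genes (25%) were called, all below 0, beside 13.5% of all genes (4.34% below 0), and with a term for the stage score the median was -0.05 and none of the 32 was called.

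Further genes of the same pathways were read from lists that hold none of the 32. In eat-2(ad1116) against wild type, 3 of 43 other release and active zone genes rose and none fell, with a median log2 fold change of 0.38. The 3 were 6.98% of the list, beside 4.08% of all genes called higher and 2.12% lower. The synaptotagmin family gene snt-4 had 13.5, 19.8 and 19.6 CPM in eat-2(ad1116), against 8.37, 9.50 and 9.53 CPM in wild type, without overlap. It gave 0.95 (edgeR adjusted p = 0.013), and lin-2, a scaffold gene, and snt-3 gave 0.60 and 0.70 (adjusted p = 0.046 and 0.049). Of 23 other peptide processing and dense-core vesicle genes, 4 rose (17.4%, against 4.08% of all genes) and none fell. sbt-1, the chaperone gene of the EGL-3 convertase, had 27.7, 33.7 and 31.9 CPM in eat-2(ad1116), against 16.8, 22.2 and 16.9 CPM in wild type, and the groups did not overlap. It gave 0.74 (edgeR adjusted p = 0.012). pghm-1, a peptide amidation enzyme gene, and nlg-1, the neuroligin gene, gave 0.91 and 1.10 (adjusted p = 0.018 and 0.035). nlg-1 was counted on this list, but neuroligin is a synaptic adhesion protein and not a peptide processing enzyme. None of 19 other endocytosis genes was called by edgeR, 2 had an unadjusted p under 0.05 (10.5%, against 26.9% of all genes), and the median of the 19 was 0.02.

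The 28 other transmitter genes moved in both directions in eat-2(ad1116), with 4 higher and 1 lower. The 4 were 14.3% of the list, beside 4.08% of all genes called higher and 2.12% lower. mod-5, the serotonin reuptake transporter gene, had 3.58, 4.61 and 4.79 CPM in eat-2(ad1116), against 0.983, 1.87 and 0.639 CPM in wild type. All 3 eat-2(ad1116) libraries, replicate 1 included, were well above wild type, at a 3.71-fold higher level and a log2 fold change of 1.89 (edgeR adjusted p = 0.012). ptps-1, an enzyme gene of the biopterin cofactor that monoamine synthesis needs, fell. It had 7.87, 8.43 and 8.87 CPM in eat-2(ad1116), against 15.2, 14.5 and 13.8 CPM in wild type, with little spread within either group, and gave -0.79 (edgeR adjusted p = 0.0059). The other 3 that rose were acetylcholinesterase genes, ace-2 (0.96, adjusted p = 0.016) and, chosen after their values were seen, ace-3 (1.26, adjusted p = 0.021) and ace-1 (0.80, adjusted p = 0.041). With a term for the stage score, mod-5, sbt-1 and ptps-1 still passed the test in eat-2(ad1116), at 1.3, 0.49 and -0.87 (adjusted p = 0.015, 0.016 and 0.0054). The other pathway genes named for eat-2(ad1116) no longer passed, with adjusted p-values of 0.064 for snt-4, 0.071 for pghm-1, 0.15 for nlg-1, 0.20 for lin-2 and 0.24 for snt-3, and of 0.10 to 0.15 for the acetylcholinesterase genes. As above, the term for the stage score does not fully separate stage from genotype.

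In the double mutant against wild type, snt-4 and sad-1, a kinase gene of presynaptic assembly, were the 2 of 43 release genes that rose, at 0.84 and 0.90 (edgeR adjusted p = 0.026 and 0.042). They were 4.65% of the list, beside 2.54% of all genes called higher and 1.73% lower. sbt-1 and pghm-1 were the 2 of 23 peptide genes (8.7%) that rose, at 0.69 and 0.87 (adjusted p = 0.018 and 0.026). Of the transmitter genes, 2 of 28 fell, beside 1.73% of all genes, and none rose. cat-4, the GTP cyclohydrolase gene of the biopterin route, had 41.5, 42.8 and 42 CPM in the double mutant, against 79, 55 and 92.1 CPM in wild type. The groups did not overlap, and it gave -0.84 (edgeR adjusted p = 0.016). ptps-1 had 11.3, 9.80 and 9.42 CPM in the double mutant, against 15.2, 14.5 and 13.8 CPM in wild type, again without overlap, and gave -0.51 (edgeR adjusted p = 0.045). Against dis-3(L75Q), where ptps-1 had 19.2, 18.1 and 17.6 CPM, it was also lower in the double mutant, by a log2 fold change of -0.85 (adjusted p = 0.0069), and it was the 1 pathway gene called there. With a term for the stage score, sbt-1 and ptps-1 still passed in the double mutant relative to wild type (adjusted p = 0.021 and 0.030), while pghm-1, cat-4, sad-1 and snt-4 did not (0.067, 0.072, 0.094 and 0.099). No gene of these 4 lists was called by edgeR in dis-3(L75Q) against wild type or between the double mutant and eat-2(ad1116).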

How the data were processed

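RNA-seq of 12 whole-body libraries was analysed. Per the labels' protocols, total RNA was extracted with RNAiso plus and sequenced as paired-end reads. Per the submitters' processing notes, STAR 2.7.0e and RSEM 1.3.1 were used with WBcel235 (ce11). The annotation, trimming, RNA selection and strand setting were not given in the sources used here. The values deposited by the authors are expected counts per gene, of which 93.4 to 93.8% of those above 0 were whole numbers, and they were rounded here. Coordinates and gene names are from Ensembl release 115 of the same build (46924 of 46934 identifiers matched).

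Counts were fitted with edgeR 4.0.16 (quasi-likelihood F test, robust, TMM scaling, filterByExpr by genotype) over all 12 libraries in 1 fit. P-values were adjusted by the Benjamini-Hochberg method in each comparison over 16259 genes, and a gene was called at an adjusted p under 0.05. The SE is the log2 fold change divided by the square root of F. CPM use the TMM-scaled library sizes (factors of 0.928 to 1.14), and TPM use merged exon length over protein-coding genes. Library scores use log2 CPM with 0.5 counts added. The 31812386 to 32773817 counts per library set the counting error alone.

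The 32 genes and all lists were chosen with earlier results of these data known. Named genes are those called in a comparison, the smallest p in each role and comparison, and at most 3 called genes per pathway list, unless stated. The alternatives were another scaling or none, no filter, DESeq2 1.42.0, limma-voom (limma 3.58.1), only the libraries compared, a replicate block, the stage score as a covariate, 3 libraries left out together, and each library left out in turn. The code was tested on simulated counts. For eat-2(ad1116) over wild type it recovered 0% of genes changed 1.5-fold and 40% of those changed 2-fold. For the interaction it recovered 0% and 14%. Genes that were not called can therefore still differ by such folds. No sequences of these genes were used here.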

Additional observations from a re-analysis of the deposited data

How the results depend on the processing

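No alternative turned the direction of a called value among the 32 genes and the called pathway genes. Of the 32 genes, edgeR called, over wild type, 0 (dis-3(L75Q)), 7 (eat-2(ad1116)) and 1 (double mutant), and 0 for the double mutant over either single mutant and for the interaction. For eat-2(ad1116) over wild type the count was 19 without scaling beyond library totals, 17 with DESeq2, 2 with limma-voom, 0 with only the libraries compared, 0 with the stage score as a covariate and 1 (unc-10) with the replicate block. For the double mutant over wild type it was 7 without scaling, 6 with DESeq2, 7 with only the libraries compared, and 0 with the stage covariate or the replicate block. For dis-3(L75Q) over wild type DESeq2 called 1. With the 3 libraries apart on the stage score left out, the counts over wild type were 21 (dis-3(L75Q)), 27 (eat-2(ad1116)) and 25 (double mutant), and for the double mutant 9 over eat-2(ad1116) and 0 over dis-3(L75Q), with 24 for the interaction, beside 51.6%, 58.6%, 46.9%, 25.1%, 25% and 53% of all genes in the same order. The libraries kept had stage scores of -2.47 and -3.25 in wild type and of 0.65 to 2.06 in the mutants. Leaving these libraries out therefore does not adjust for stage, and genotype and stage score cannot be told apart in that fit. Leaving out 1 library gave, over wild type, 0 to 2 (dis-3(L75Q)), 0 to 24 (eat-2(ad1116)) and 0 to 11 (double mutant), and 0 to 8 for the interaction, with 0 for the double mutant over either single mutant. Calls over all genes were 49 to 1306 (dis-3(L75Q)), 298 to 6161 (eat-2(ad1116)), 230 to 2390 (double mutant) and 3 to 2214 (interaction). The cause of these changes was not tested.

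Over 21 alternatives unc-10 was called in 16 of them over wild type (eat-2(ad1116), adjusted p = 2.1e-05 to 0.13) and in 14 (double mutant), while cpx-1, unc-17, egl-21, unc-31 and sng-1 were called in 7 or 8 for eat-2(ad1116) and ida-1 in 10. Of the pathway genes named for eat-2(ad1116), snt-3 was called in 6, lin-2 in 8, nlg-1 in 9 and ace-1 in 10, and the others in 15 to 20. For the double mutant over wild type, ptps-1 was called in 9, sad-1 in 10 and the others in 15 or 16, and the replicate block lost snt-4, sad-1 and ptps-1 (adjusted p = 0.065, 0.065 and 0.092). Counts were also taken over all genes: leaving out 1 library gave 298 to 6161 calls for eat-2(ad1116) over wild type, beside 1009 with all libraries. Without scaling, genes called higher and lower numbered 1482 and 232 for eat-2(ad1116) over wild type (scaled, 664 and 345), 803 and 243 for the double mutant over wild type (scaled, 413 and 282), and 147 and 98 for the double mutant over dis-3(L75Q) (scaled, 89 and 113), where the median over all genes was 0.16 in place of 0.05. No pairing of libraries by replicate number was apparent. Same-numbered libraries of 2 genotypes had correlations of -0.63 to 0.42 in their deviations, 7 of 18 above 0.1, and 4 of 12 libraries correlated best with their own number. The libraries apart on the stage score carry different numbers, so this check cannot exclude batches shared by number. Each strain was 1 line, the spread is between 3 harvests, and the lowest count of any of the 32 genes in a library was 25.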
